A study of Macaca fascicularis with 2 samples.

Results

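Cells of cynomolgus monkey cartilage and disc that did not carry the notochordal genes *KRT19* and *TBXT* were compared between cell pools that were rich in notochordal nucleus pulposus cells (NCs) and pools that held almost none. The cells were chosen by measured values, namely under 5 reads of *KRT19* and under 5 reads of *TBXT*, and are called non-NCs here. They numbered 5258 of the 5653 cells that carried a single tag and lay within the quality limits, and the other 395 cells were NCs by this rule. All cells came from 1 transcriptome library of articular cartilage (AC) of the femoral condyle and lumbar nucleus pulposus (NP), taken from wild type male monkeys, 3 years of age, without treatment. Before pooling, cells were biotinylated at their surface and stained with 4 barcode tags (A951, A952, A953 and A954) that mark their origin. The label of the library names 3 tissue samples (AC3, NP3 and AC4) for these 4 tags, and AC3 and NP3 came from the same monkey. Which sample or animal each tag marks, and whether a pair of tags shares one, is not given in the sources used here. Tags of a side may therefore not be separate samples, tissue, animal and staining cannot be told apart between tags, and no tissue is assigned to any tag below.

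AC chondrocytes and the chondrocyte-like cells of the NP both build a matrix of type II, IX and XI collagen and aggrecan. NCs are remnants of the embryonic notochord that lie among the chondrocyte-like cells of young discs. They are marked by keratin 19 and brachyury (*TBXT*) and are known as a source of sonic hedgehog, a secreted ligand that binds the receptor patched, relieves the transducer smoothened and acts through the GLI factors. In AC, the cells nearest the joint surface lie in a zone with fine collagen fibers, lubricin and small leucine-rich proteoglycans, and those of the deeper zones make more type II collagen and aggrecan.

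NCs made up 7.84% of the cells of A951 (95% Wilson interval 6.33 to 9.68, 78 of 995 cells) and 25.1% of A952 (22.6 to 27.7, 282 of 1125 cells). They made up 1.09% of A953 (0.661 to 1.79, 15 of 1377 cells) and 0.928% of A954 (0.601 to 1.43, 20 of 2156 cells). A951 and A952 are therefore called the NC-rich tags and A953 and A954 the NC-poor tags, and this split is a selection on a readout, not a result. The NCs of the NC-rich tags were far from the limit, with a median of 203.5 and 212 reads of the higher of both genes, whereas the few of the NC-poor tags had a median of 11 reads in each tag. Just inside the limit, 2, 4, 2 and 4 non-NCs of A951 to A954 had exactly 4 reads, and just outside it 0, 1, 4 and 2 cells had exactly 5.

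The non-NCs numbered 917 in A951, 843 in A952, 1362 in A953 and 2136 in A954. Their median depth was 185223, 178320, 196196 and 222358 reads, and their median number of genes detected was 3647, 3575, 3808 and 4038. A954 was thus the most deeply read tag and A952 the least. Chondrocyte genes were found throughout the non-NCs, with at least 5 reads of *COL2A1* in 100% of them, of *HAPLN1* in 98.7%, of *ACAN* in 98.3% and of *SOX9* in 62.6%. Markers of other cells were found in fewer cells. Of the blood cell genes, at least 5 reads of *PTPRC* were present in 0.0761% of the non-NCs, of *CD14* in 1.26% and of *CD68* in 8.82%. Of the endothelial genes, *VWF* was present in 0.19% and *PECAM1* in 0.133%. The mural genes *RGS5* and *ACTA2* were present in 1.41% and 2.81%, the bone genes *SP7* and *BGLAP* in 0.038% and 3.14%, and the tendon genes *TNMD* and *MKX* in 0.0571% and 1.26%. The summed level of the 4 blood markers counted was 17.6, 18.0, 30.8 and 19.6 reads per 1000000 reads (rpm) in A951 to A954, mostly from *CD68*, and that of the 3 endothelial markers 2.23, 1.96, 1.94 and 1.84 rpm.

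For each tag, the reads of its non-NCs were summed and given as rpm of all their reads. Of the 21371 genes counted, 8501 had a mean over the 4 tags of at least 5 rpm and a read in at least 2% of the non-NCs, and these held 99.3% of the reads. With 2 tags a side in 1 library, formed on a readout, no p-value is given, and a difference between the sides is set against the difference between the tags of a side. The reads carry no molecular identifiers, so the intervals of shares cover counting error only.

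Both tags of the NC-rich side were closest to each other of all pairs, whereas those of the NC-poor side were as far apart as pairs across the sides. Across the 8501 genes, the log2 levels of A951 and A952 had a Pearson correlation of 0.985, and 101 genes (1.19%) were at least 2-fold apart. For A953 and A954 these values were 0.967 and 309 genes (3.63%). A954 was closer to the NC-rich tags than to A953, with 145 genes 2-fold apart from A951 and 164 from A952. A953 had 263 genes 2-fold apart from A951 and 304 from A952. The median absolute log2 difference was 0.15 for A951 and A952 and 0.22 for A953 and A954, and A953 was farther from A951 (0.23) and A952 (0.24) by this measure. The 309 genes between A953 and A954 were the most of any pair, but only just above the 304 between A952 and A953. These correlations are across genes, which are not independent replicates, and all tags share 1 library.

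**Figure D1:**
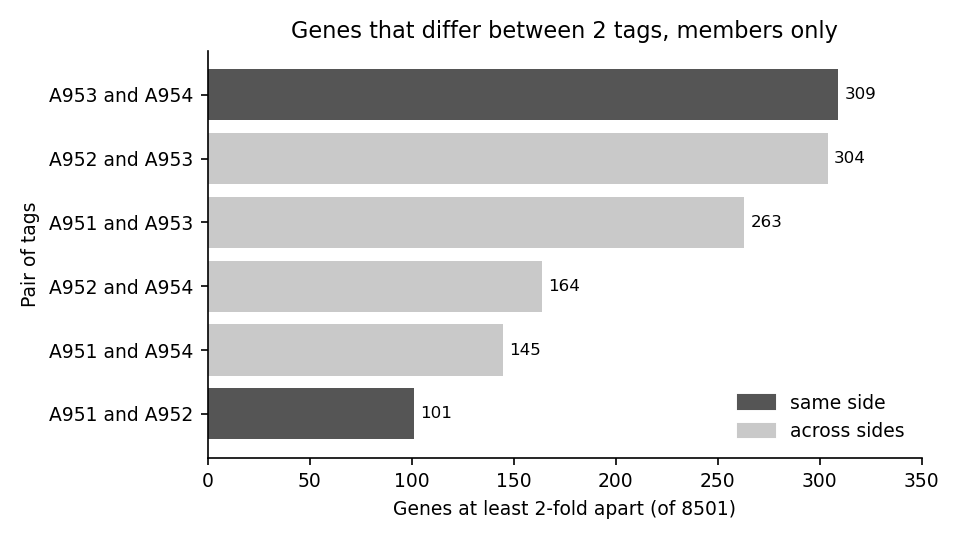
Number of genes, of the 8501 compared, whose summed levels in non-NCs were at least 2-fold apart between 2 tags (horizontal axis) for each pair of tags (vertical axis). Dark bars are the pairs within a side and light bars the pairs across the sides, and the within-side pairs are the lowest (101) and the highest (309).

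Few genes separated the sides. In 4 genes both NC-rich tags lay at least 2-fold above both NC-poor tags (0.0471% of the genes compared), and in 10 genes both NC-poor tags lay at least 2-fold above both NC-rich tags (0.118%). At 1.5-fold the counts were 45 (0.529%) and 37 (0.435%). Without a minimum size, both NC-rich tags were higher in 1682 genes (19.8%) and both NC-poor tags in 1773 genes (20.9%), and the tags of the sides overlapped in 5046 (59.4%). The median log2 difference of the sides over all genes was 0.0052. Of 76 genes whose side means were at least 2-fold apart, 14 kept that distance between the nearest tags, and 15 overlapped between the sides.

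**Figure D2:**
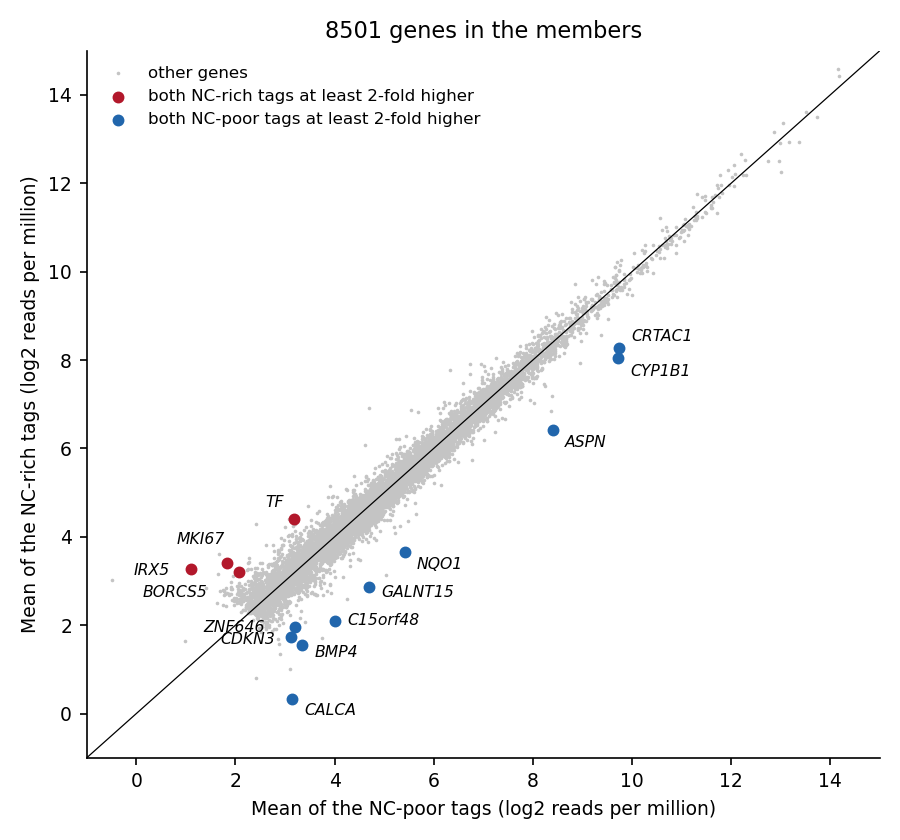
Mean log2 level (rpm) of each of the 8501 genes in non-NCs of the NC-poor tags (horizontal axis) and of the NC-rich tags (vertical axis), with the line of equal levels. Red points are the 4 genes and blue points the 10 genes at least 2-fold apart between the nearest tags of the sides, and the grey points of all other genes lie along the line.

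Of the 10 genes past 2-fold in the NC-poor tags, *CRTAC1*, *CYP1B1* and *ASPN* were the most widely found among the cells. *ASPN* encodes asporin, a small leucine-rich proteoglycan that binds collagen and TGF-beta. Its level was 78.6 rpm in A951, 92.6 in A952, 329 in A953 and 347 in A954. Both NC-rich tags were low and both NC-poor tags high, with the sides 3.96-fold apart and the tags of each side within 1.18-fold. The share of non-NCs with at least 5 reads of *ASPN* was 13.7% (11.7 to 16.1) in A951, 12.3% (10.3 to 14.7) in A952, 33.2% (30.7 to 35.7) in A953 and 35.6% (33.6 to 37.6) in A954. Among the cells above this limit the level was 428, 555, 828 and 806 rpm, so both the share of cells and the level in those cells were lower on the NC-rich side. In NCs, 0 of 78 cells of A951 had 5 reads of *ASPN*, which allows a share of up to 3.85% by 3 cells and up to 4.69% by the Wilson interval, and 1 of 282 of A952 (0.355%), at median depths of 145970 and 176762 reads.

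*CRTAC1*, a secreted calcium-binding protein of cartilage matrix, had 332 and 292 rpm in the NC-rich tags against 871 and 836 rpm in the NC-poor tags, and the sides were 2.74-fold apart. At least 5 reads were found in 38.3% and 38.8% of the non-NCs of A951 and A952 and in 59.3% and 59.6% of those of A953 and A954. NCs of A952 had *CRTAC1* in 35.1% of cells (29.8 to 40.8), which is not apart from the 38.8% of its non-NCs, and those of A951 in 14.1%. *CYP1B1*, a cytochrome P450 enzyme of steroid and retinoid metabolism, had 292, 242, 1120 and 633 rpm in A951 to A954. The sides were 3.16-fold apart, and A953 lay well above A954. Here the shares of cells differed less, at 38.6%, 29.5%, 47.0% and 44.9%, than the levels in cells with at least 5 reads, at 601, 634, 1917 and 1118 rpm. *CRTAC1* in the cells that had it was at 672, 590, 1249 and 1179 rpm, so it differed in the share of cells and in their level.

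The other NC-poor genes past 2-fold were found in fewer cells. *NQO1*, a quinone reductase of the antioxidant response, had 14.5 and 10.9 rpm in the NC-rich tags and 49.7 and 36.5 rpm in the NC-poor tags, with shares of 5.34%, 5.10%, 16.3% and 10.8%. *GALNT15*, which starts O-linked glycosylation, had 7.60, 7.0, 25.6 and 26.2 rpm and shares of 2.51%, 2.49%, 7.86% and 9.97%. *BMP4*, a ligand of the BMP pathway, had 3.22, 2.68, 13.5 and 7.54 rpm with shares of 0.872%, 0.83%, 4.92% and 2.81%. All 3 genes kept the order of the sides in level and in share, with the NC-poor tags differing between themselves by up to 1.8-fold.

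*CALCA*, which encodes calcitonin and its gene-related peptide, had the widest gap, with 2.10 and 0.762 rpm against 8.15 and 9.56 rpm. It rested on 8, 5, 31 and 46 cells with at least 5 reads, and the sides were 6.98-fold apart. Its mean over the tags was close to the limit of 5 rpm, with both NC-rich tags below that limit. *CALCA* was no longer among the genes compared after thinning to 50000 reads or without A953 or A954. The same held without a read of *KRT19* or *TBXT*, with under 5 reads of 6 notochordal genes, and without the 0.5% of cells with most reads. *C15orf48* (3.53, 5.15, 14.7 and 17.5 rpm), *ZNF646*, a zinc finger gene (3.19, 3.52, 8.98 and 8.40 rpm), and *CDKN3*, a cell cycle phosphatase (3.47, 4.32, 9.21 and 9.26 rpm), complete the genes past 2-fold. Each of these 4 genes was found at 5 reads in under 6% of the cells of any tag, and the 5 cells with most reads of *C15orf48* held 89.8% of its reads in A952 against 19.6% in A954.

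**Figure D3:**
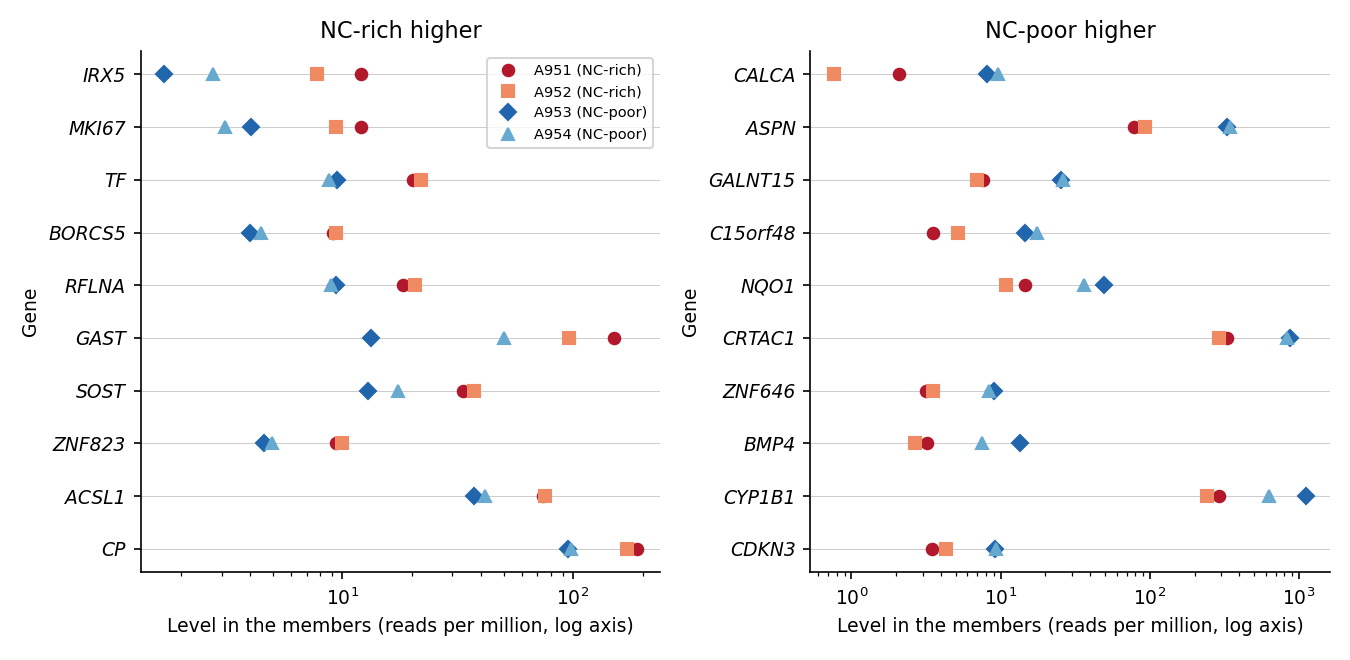
Level (rpm, log axis) in non-NCs of each tag for the 10 genes with the widest gap between the nearest tags of the sides in each direction, whose shares of cells did not overlap either. Each point is 1 tag, and in every gene the red and orange points (NC-rich) lie on 1 side of the blue points (NC-poor).

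*ASPN*, *CRTAC1*, *IGFBP6*, *CILP*, *SULF2* and *PRSS23* are among the genes the study picked as markers of a cartilage-dominant cluster from these cells. Their place in the list of superficial zone and fibrocartilage genes is therefore not independent evidence. Of the 21 genes of that list that could be compared, both NC-poor tags were higher in 10 (47.6%, against 20.9% of all genes), both NC-rich tags in 3 (14.3%, against 19.8%) and the tags overlapped in 8 (38.1%, against 59.4%), and the median log2 difference was -0.24. Past 1.5-fold between the nearest tags were *ASPN*, *CRTAC1*, *LUM*, *CILP* and *PRSS23*. *LUM*, lumican, which regulates collagen fibrils, had 162, 129, 270 and 418 rpm, and its share of cells was highest in A954 at 51.5% against 29.4%, 26.3% and 34.0%. *CILP*, an intermediate layer protein that antagonizes TGF-beta, had 182, 157, 290 and 321 rpm. *PRSS23*, a serine protease, had 165, 187, 289 and 309 rpm. *IGFBP6*, which sequesters IGF-2, and *SULF2*, a heparan sulfatase, were also higher in both NC-poor tags, but A953 with 782 and 344 rpm stood far above A954 with 318 and 176 rpm.

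Lubricin (*PRG4*), the best known product of the joint surface, did not separate the sides. Its level was 11882 rpm in A951, 11140 in A952, 16471 in A953 and 11203 in A954, so A953 alone was high. *DCN*, decorin, had 4042, 3826, 2931 and 6302 rpm, with an NC-poor tag at each end of the range. *THBS4* (122, 106, 127 and 21.0 rpm) was low in A954 alone. Clusterin (*CLU*), a secreted chaperone, was higher in both NC-poor tags, with 7805, 7846, 11181 and 10132 rpm.

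The cells with and without *ASPN* were then looked at apart, a split chosen after the values had been seen. Cells with at least 5 reads of *ASPN* were deeper than the rest, for example 273205 against 199324 reads in A954. Among cells with under 5 reads of *ASPN*, *CRTAC1* still had 177 and 186 rpm in the NC-rich tags and 471 and 286 rpm in the NC-poor tags, and *NQO1* had 8.99, 7.43, 26.6 and 13.8 rpm. *CILP* overlapped in these cells, with 171, 125, 143 and 205 rpm. *ASPN* itself differed between the sides and its limit was reached more often in deeper cells, so these values only describe the cells on each side of that limit. *BMP4* also overlapped in cells with under 5 reads of *ASPN*, at 2.66, 1.78, 7.36 and 2.52 rpm, where A953 alone was high.

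**Figure D4:**
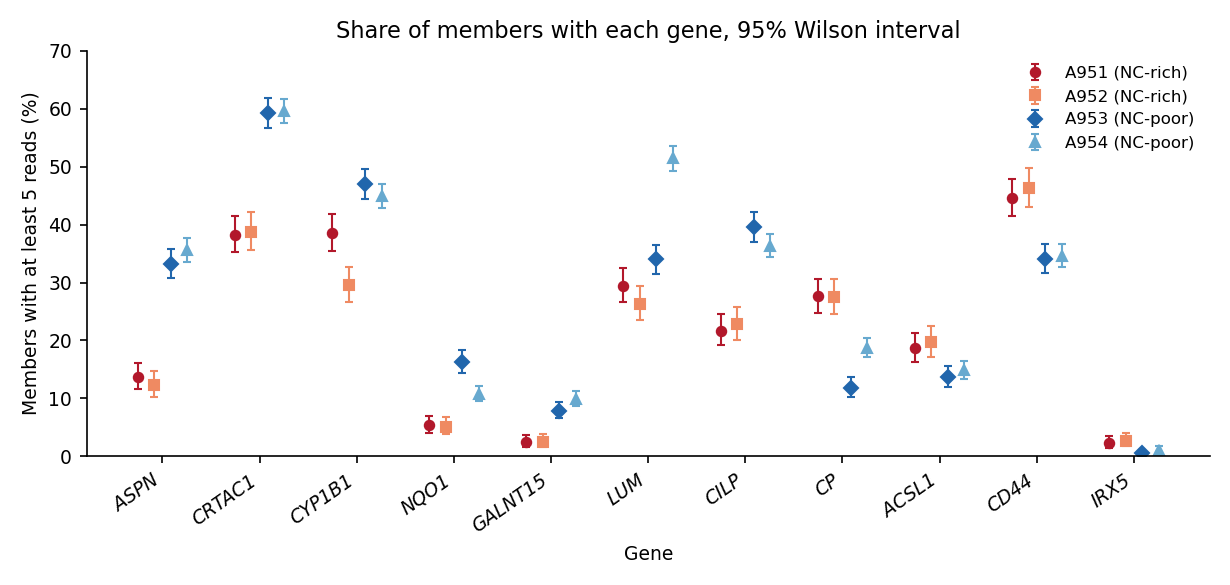
Share of non-NCs with at least 5 reads (vertical axis, percent) of 11 genes (horizontal axis) in each tag, with 95% Wilson intervals as bars. For *ASPN*, *CRTAC1*, *NQO1*, *GALNT15* and *CILP* both NC-poor tags lie above both NC-rich tags with no overlap of the intervals, and for *CP* and *CD44* both lie below.

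Genes of the cartilage matrix were higher in the NC-rich tags by small amounts that both tags of a side shared. Of 21 genes compared, both NC-rich tags were higher in 13 (61.9%, against 19.8% of all genes) and both NC-poor tags in 4 (19.0%, against 20.9%), and none was 1.5-fold apart between the nearest tags of the sides. The median log2 difference was 0.28. *COL2A1* had 24620 rpm in A951 and 24570 in A952 against 18046 in A953 and 18512 in A954. The tags of a side were within 1.03-fold, and the sides were 1.35-fold apart. The partners of type II collagen followed the same order, with 6480, 6428, 4577 and 4796 rpm of *COL9A1* and 3414, 3484, 2665 and 2453 rpm of *COL11A1*. *ACAN*, aggrecan, had 4687, 4589, 3195 and 3853 rpm. *FRZB*, a secreted WNT antagonist, had 2437, 2355, 1687 and 1358 rpm, and chondromodulin (*CNMD*), an inhibitor of vessel growth, had 284, 249, 187 and 127 rpm. In the opposite direction lay the leucine-rich proteoglycans *FMOD* (5900, 5702, 8536 and 7565 rpm) and *PRELP*, and *MATN4* and *VIT*. *SOX9*, the main factor of cartilage genes, overlapped with 388, 301, 265 and 387 rpm, as did its partners *SOX5* and *SOX6*.

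The difference in *COL2A1* was smaller among cells with under 5 reads of *ASPN*. There it had 25606 and 25909 rpm in the NC-rich tags and 22812 and 22595 rpm in the NC-poor tags, a log2 difference of 0.18. Among cells with at least 5 reads of *ASPN* it had 20066, 17641, 10742 and 13073 rpm, a log2 difference of 0.67. *COL9A1* behaved alike, with log2 differences of 0.17 and 0.90. In each tag the cells with *ASPN* had less *COL2A1* than those without, and more so in the NC-poor tags.

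Other collagens gave the same direction. Of 12 genes compared, both NC-rich tags were higher in 8 (66.7%, against 19.8% of all genes) and both NC-poor tags in 1 (8.33%, against 20.9%), with a median log2 difference of 0.36. *COL1A1*, the main chain of fibrous collagen, was the widest apart, with 961 and 740 rpm against 486 and 435 rpm. Its share of cells did not follow, at 21.7%, 19.5%, 24.4% and 22.7%, so the difference lay in the level of the cells that had it. *COL1A2* had 1126, 1074, 1032 and 632 rpm, with A953 close to the NC-rich tags, and *COL3A1* overlapped. Of the 20 genes of glycosaminoglycan synthesis compared, 9 (45%, against 19.8% of all genes) were higher in both NC-rich tags and 1 in both NC-poor tags, with a median of 0.23. *XYLT1*, which starts the glycosaminoglycan chains, had 330, 329, 238 and 245 rpm.

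**Figure D5:**
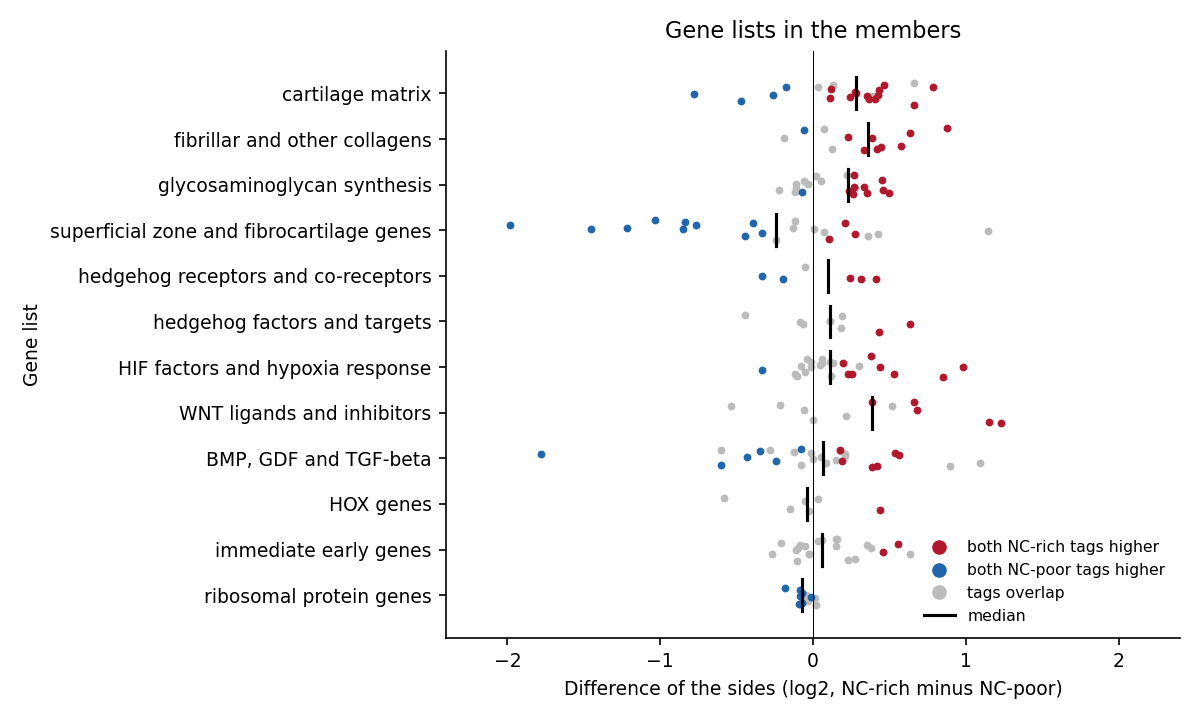
Log2 difference of the sides (NC-rich minus NC-poor, horizontal axis) for each gene of 12 lists (vertical axis), with the median of each list as a black line. Red and blue points are genes whose tags did not overlap between the sides and grey points those that did, and the red points prevail in the cartilage matrix and collagen lists and the blue points in the superficial zone list.

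Other groups of cartilage and disc genes were split in direction. Of 23 matrix proteases and inhibitors compared, 7 (30.4%, against 19.8% of all genes) were higher in both NC-rich tags, 5 (21.7%, against 20.9%) in both NC-poor tags and 11 overlapped, with a median of 0.10. *MMP3*, stromelysin, had 10342, 10621, 7735 and 9394 rpm and the inhibitor *TIMP3* 1256, 1195, 822 and 948 rpm, both higher in the NC-rich tags. *ADAMTS5*, an aggrecanase, had 6.07, 6.76, 22.7 and 8.15 rpm, and *CTSK*, a collagen-degrading cathepsin, 105, 100, 223 and 124 rpm, and in both A953 was far above A954. Of 17 chondrogenic and tendon factors, 4 (23.5%) were higher in both NC-rich tags, 3 (17.6%) in both NC-poor tags and 10 overlapped, which is near the shares of all genes. The homeobox factor *PRRX2*, with 55.4, 49.4, 79.2 and 78.7 rpm, was among those higher in the NC-poor tags, and *NFATC1*, a calcium-responsive factor, with 577, 612, 400 and 562 rpm, among those higher in the NC-rich tags. Of 14 nucleus pulposus and disc genes 8 overlapped (57.1%), and so did 6 of 10 genes of hypertrophy and mineralization (60%), which is near the 59.4% of all genes.

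The 4 genes past 2-fold in the NC-rich tags were found in few cells. *IRX5*, a homeobox factor, had 12.1 rpm in A951 and 7.76 in A952 against 1.69 in A953 and 2.76 in A954. It rested on 21, 23, 8 and 25 cells with at least 5 reads, and 5 cells held 78.2% of its reads in A951. In cells with at least 5 reads of *ASPN* the sides overlapped in *IRX5*, at 46.8, 0.392, 0.409 and 1.21 rpm. *MKI67*, a marker of dividing cells, had 12, 9.42, 4.04 and 3.11 rpm from 8, 7, 5 and 10 such cells, and overlapped in cells with at least 5 reads of *ASPN*. Its log2 gap between the nearest tags fell from 1.22 to 0.26 with equal weight of cells and to 0.26 after thinning to 50000 reads. It was then no longer among the genes compared. After thinning, the share of cells with a read of *MKI67* was slightly higher in the NC-poor tags, at 1.58%, 1.72%, 1.93% and 1.78%. Of 9 proliferation genes compared, *MKI67* alone was 1.5-fold apart between the nearest tags, and *TOP2A* had 9.94, 13.5, 7.03 and 3.38 rpm, with side means 2.37-fold and nearest tags 1.41-fold apart. *TF*, transferrin, which carries iron, had 20.3, 21.8, 9.46 and 8.80 rpm with shares of 4.03%, 4.63%, 2.72% and 2.90%. *BORCS5*, a subunit of a complex that positions lysosomes, had 9.13, 9.38, 3.97 and 4.42 rpm.

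The next genes by gap, of those whose shares of cells did not overlap either, were *RFLNA*, *GAST*, *SOST*, *ZNF823*, *ACSL1* and *CP*. *CP*, ceruloplasmin, a copper-bearing oxidase of iron, was the most widely found of these, with 189 and 172 rpm against 95 and 98.2 rpm and shares of 27.6%, 27.5%, 11.8% and 18.8%. *ACSL1*, which activates long-chain fatty acids, had 73.8, 75.3, 37.1 and 41.5 rpm. *SOST*, sclerostin, a WNT inhibitor best known from osteocytes, had 33.3, 37.3, 12.9 and 17.5 rpm in 7.20%, 7.0%, 3.52% and 4.92% of cells. *GAST*, gastrin, had 151, 96.1, 13.3 and 50.3 rpm, and A953 was far below A954. *ADPRHL1* was almost 2-fold apart between the nearest tags but its shares of cells overlapped, and *LRRN4CL* lay just under 2-fold in the opposite direction.

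The NC markers are given beside these genes, as the non-NCs could hold RNA of NCs. *KRT19* had 0.573, 0.491, 0.481 and 0.541 rpm in the non-NCs of A951 to A954 against 933 rpm in NCs, but its reads were limited by the choice of the cells. *C3orf49*, which the rule did not use, had 2.26, 4.18, 2.60 and 2.09 rpm against 1952 rpm in NCs, and *NRN1*, a neuritin, had 2.05, 3.04, 2.21 and 0.505 rpm against 451 rpm. *APOE*, an apolipoprotein that NCs make in quantity (9440 rpm), had 96.6, 152, 86.0 and 61.1 rpm, which is 1.02%, 1.61%, 0.911% and 0.647% of the NC level. A952, the tag with most NCs, was highest in these 3 genes, and the NC-poor A953 was above A951 in *C3orf49* and *NRN1*. *SRGN*, serglycin, a granule proteoglycan that NCs had at 627 rpm, was instead highest in A953, with 3.82, 5.64, 10.2 and 4.20 rpm. Of 20 NC markers listed 15 were counted and 5 were high enough to be compared, of which 2 (40%, against 19.8% of all genes) were higher in both NC-rich tags and 3 overlapped. With cells left out that had 5 reads of *C3orf49*, *NRN1*, *SRGN* or *SHH*, which removed between 2.57% and 3.08% of the non-NCs of a tag, *APOE*, which was not used to remove cells, came to 92.5, 100, 77.6 and 57.7 rpm.

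Of the 10 named NC-rich genes, *IRX5* (89.0 rpm), *TF* (167 rpm), *BORCS5* (14.4 rpm) and *ZNF823* (13.9 rpm) were themselves higher in NCs than in the non-NCs. At least 5 reads of *IRX5* were present in 28.2% and 29.8% of the NCs of A951 and A952. In the stricter set of non-NCs the log2 difference of *IRX5* was 1.31 against 2.16 in all non-NCs, and that of *TF* 1.47 against 1.21. The log2 gap of *IRX5* between the nearest tags was 0.71 in this set and 0.79 in cells without a read of *KRT19* or *TBXT*, under 2-fold in both, and it was then no longer among the genes compared. The log2 gap of *TF* was 1.33 in the stricter set, but 0.79 in cells without a read of *KRT19* or *TBXT*. In cells with under 5 reads of *ASPN* the gap of *TF* was 0.19. *IRX3*, a factor of the same homeobox family, had 3.49, 4.90, 2.54 and 0.928 rpm in non-NCs and 54.7 rpm in NCs, and was below the level at which genes were compared. *SOST* (2.75 rpm), *RFLNA* (3.54 rpm), *GAST* (13.0 rpm) and *CP* (45.9 rpm) were lower in NCs than in the non-NCs of both NC-rich tags. The part of NC RNA in the *IRX5* difference was not tested.

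No gene of the hedgehog pathway was 1.5-fold apart between the nearest tags of the sides. Few genes of any kind were, 0.529% of all genes with the NC-rich and 0.435% with the NC-poor tags higher. The ligands *SHH*, *IHH* and *DHH* were under 0.4 rpm in the non-NCs of every tag, and *SHH* had 84.9 rpm in NCs. The transcription factor and target *GLI1* had 9.55, 8.78, 10.8 and 8.75 rpm, and *GLI2* had 6.05, 5.64, 4.95 and 5.93 rpm, and both overlapped between the sides. The receptor *PTCH1*, also a target, had 11.1, 15.3, 10.4 and 9.24 rpm, with A952 high and the nearest tags of the sides close to each other. *SMO*, smoothened, had 49.3, 51.8, 43.2 and 42.2 rpm, and the co-receptor *BOC* 108, 110, 83.5 and 92.3 rpm, both slightly higher in the NC-rich tags. *CDON*, another co-receptor (148, 156, 193 and 157 rpm), and *DISP1*, which releases the ligand, were slightly higher in the NC-poor tags. *HHIP*, an inhibitor that is itself a target, had 25.3, 21.7, 47.0 and 21.8 rpm and was high in A953 alone. Of 15 genes of the pathway compared in all, 5 were higher in both NC-rich tags, 2 in both NC-poor tags, and 8 overlapped, where 19.8% and 20.9% of all genes were higher on those sides.

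Genes of the hypoxia response overlapped between the sides about as often as all genes, at 60.9% against 59.4%. Those that did not were mainly higher in the NC-rich tags. *HIF1A* had 683, 754, 906 and 673 rpm and overlapped. Of 23 genes of this group compared, 8 (34.8%, against 19.8% of all genes) were higher in both NC-rich tags and 1 (4.35%, against 20.9%) in both NC-poor tags, none of them 1.5-fold between the nearest tags, with a median log2 difference of 0.11. *SLC2A1*, a glucose transporter, had 435, 394, 250 and 328 rpm, *HK2*, a hexokinase, 110, 109, 72.6 and 89.7 rpm, and *NDRG1* 742, 705, 626 and 638 rpm. *ANGPTL4*, a lipase inhibitor, had 36.4, 47.8, 29.5 and 15.1 rpm. Of the 12 glycolytic genes, 10 overlapped (83.3%, against 59.4% of all genes), for example *LDHA* with 221, 199, 202 and 214 rpm, and the other 2 were higher in both NC-rich tags.

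Factors that record the position of a tissue in the body were compared as well. Of 39 HOX genes listed 6 could be compared, of which 5 overlapped, where 59.4% of all genes did. *HOXA10* had 17.7, 17.9, 17.3 and 22.6 rpm, *HOXC9* 6.76, 4.43, 10.7 and 6.32 rpm and *HOXA9* 13.3, 14.3, 10.7 and 19.3 rpm. *TBX4*, a factor of the hindlimb, had 19.7, 14.8, 12.7 and 18.1 rpm. *IRX5* was the 1 gene of the 7 limb and axial regulators compared that did not overlap. These genes were found in every tag.

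Among secreted signals, *BMP2* was higher in the NC-rich tags (947, 938, 675 and 605 rpm), opposite to *BMP4*. Of 26 genes of the BMP, GDF and TGF-beta group compared, 6 (23.1%) were higher on each side, near the 19.8% and 20.9% of all genes, with a median of 0.07. The receptors *TGFBR1* (146, 134, 88.7 and 104 rpm) and *TGFBR2* (69.2, 73.4, 93.5 and 98.4 rpm) lay in opposite directions. Of 11 genes of WNT ligands and inhibitors, 5 (45.5%, against 19.8% of all genes) were higher in both NC-rich tags and none in both NC-poor tags, with a median of 0.38. *SFRP5*, a secreted WNT antagonist, had 422, 388, 336 and 190 rpm. *NKD1*, an inhibitor and target inside the cell, had 8.13, 9.17, 3.30 and 4.56 rpm.

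Of 17 genes of the IGF and FGF group, 4 (23.5%) were higher on each side, near the shares of all genes. *IL6*, an inflammatory cytokine, had 114, 121, 31.5 and 69.9 rpm, but its share of cells overlapped. Of the 18 chemokine and NF-kB genes 14 overlapped (77.8%, against 59.4% of all genes), 3 were higher in both NC-rich tags and 1 in both NC-poor tags. *CD44*, the receptor of hyaluronan, had 218, 249, 135 and 123 rpm with shares of 44.6%, 46.4%, 34.1% and 34.6%, and NCs had more of it (630 rpm). *ITGA6*, a laminin-binding integrin chain, had 131, 136, 62.8 and 87.1 rpm. Of 22 adhesion genes 8 (36.4%, against 19.8% of all genes) were higher in both NC-rich tags and 1 (4.55%, against 20.9%) in both NC-poor tags.

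Among stress and housekeeping groups, immediate early genes mostly overlapped and ribosomal protein genes moved by small amounts. The list of antioxidant, iron and metallothionein genes held 2 genes past 2-fold, *NQO1* and *CYP1B1*. Of 21 immediate early genes 19 overlapped (90.5%, against 59.4% of all genes), for example *FOS* with 450, 572, 515 and 574 rpm, and the other 2 were higher in both NC-rich tags. Of 13 ribosomal protein genes 8 (61.5%, against 20.9% of all genes) were higher in both NC-poor tags, but by a median log2 difference of -0.07 over the list, as with *RPLP1* at 7616, 7731, 8187 and 8070 rpm. Of 12 genes of this list compared, 6 (50%, against 20.9% of all genes) were higher in both NC-poor tags. *CYP1B1* was among these, although it is a cytochrome P450 enzyme and not an antioxidant gene. Past *NQO1* and *CYP1B1* the differences of these 6 genes were small, for example *SOD3*, an extracellular superoxide dismutase, with 2541, 2600, 3823 and 2960 rpm. *HMOX1* was instead slightly higher in both NC-rich tags, with 345, 333, 326 and 329 rpm.

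A953 and A954 also differed widely from each other, in genes where A953 or A954 stood apart from all other tags. In A953, 27 genes were at least 2-fold above and 65 at least 2-fold below all other tags, against 4 and 32 in A954, 4 and 9 in A952 and 0 and 9 in A951. *IGFBP5*, which binds IGFs, had 118, 113, 779 and 141 rpm, and *IGFBP4* 3.51, 3.05, 29.5 and 6.09 rpm. *MGP*, an inhibitor of calcification, had 4808, 4995, 10580 and 6361 rpm, and *BMPER*, a BMP-binding protein, 50.3, 54.1, 157 and 40.2 rpm. In these 4 genes A953 was the highest tag, and A954 was nearer to the NC-rich tags than to A953. In *IGFBP5*, *IGFBP4* and *MGP* A954 still lay above both NC-rich tags, by 1.74-fold at the nearest tags in *IGFBP4*.

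A953 was also high in genes of blood cells. *CD74*, the invariant chain of antigen presentation, had 6.09, 12.7, 70.7 and 15.2 rpm, with at least 5 reads in 8.88% of A953 cells against 3.23% of A954 and under 1% of the NC-rich tags. *S100A8*, a neutrophil protein, had 51.5 rpm in A953 and under 0.3 rpm in the other tags, from 4 cells, 1 of which held 8371 of its 16915 reads. *PTPRC*, the defining surface gene of white blood cells, was at 0.471, 0.554, 1.33 and 0.466 rpm in A951 to A954, with at least 5 reads in 0.294% of A953 cells. The summed level of the 13 blood cell genes counted, of 19 listed, was 73.8, 50.5, 230 and 39.8 rpm. Whether the cells with *CD74* were blood cells, and the part of blood cells in the values of A953, was not tested. Below all other tags in A953 were *CHRDL1*, a BMP antagonist (24.3, 23.8, 5.17 and 32.2 rpm), and *UCMA*, a mineralization inhibitor of cartilage (40.4, 36.9, 10.5 and 56.6 rpm).

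A954 stood apart in other genes. *IL17B*, a cytokine of cartilage, had 204, 236, 197 and 33.0 rpm, and *BGLAP*, osteocalcin, 28.5, 31.1, 31.0 and 6.96 rpm, each low in A954 alone. *HSPH1*, a heat shock protein, had 331, 362, 323 and 775 rpm and was high in A954 alone. Of the 11 heat shock genes compared, 3 (27.3%, against 20.9% of all genes) were higher in both NC-poor tags, 1 in both NC-rich tags and 7 overlapped.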

How the data were processed

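TAS-seq, a bead-based single-cell method, was used on 1 pooled library of AC and NP cells. The authors aligned reads with HISAT2 2.2.1, assigned them to genes with featureCounts 2.0.2 and deposited counts of reads per gene and cell, without normalization or molecular identifiers. The counts of PCR copies make levels of genes found in few cells uncertain, and reads of near-identical genes can be shared. The genome build was not given in the sources used here. A second matrix of 1358 cell columns was not used.

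All 5723 cell barcodes differed. Cells called doublets by tag (42) or without a tag (7) were left out, and cells with 200 to 9000 genes and under 5% mitochondrial reads (13 genes) were kept, as in the study. Levels, gaps and shares, calculated under Python 3.11.15 (pandas 2.3.3, scipy 1.17.1, numpy 2.4.6), used a floor of 3 reads per tag in log2 values. A gene was counted for a side when its lower tag was at least 2-fold above the higher tag of the other side. Named genes were the 10 with the widest gap in each direction whose shares of cells at 5 reads did not overlap either, and genes of 31 lists, of which 540 of 655 genes were among those counted. *IGFBP4*, *ADPRHL1*, *LRRN4CL* and the genes of single tags were chosen after their values were seen. The members, lists and sides were chosen with earlier results of these data known. The calculation was tested on simulated data. Alternatives were other limits on cells and genes, other scaling, equal weight of cells, thinning to 50000 reads, stricter removal of NCs, leaving out each tag, and, chosen after seeing the data, leaving out the 0.5% of cells with most reads of a gene and the split by *ASPN*.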

Additional observations from a re-analysis of the deposited data

How the results depend on the processing

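The 20 genes of the widest gaps whose shares of cells did not overlap either all kept their direction under every alternative other than the split by *ASPN*. Their tags did not overlap under any of these. The genes had been picked for their gaps, and several alternatives could not have changed the order of their tags. Other limits on level and share left the levels as they were, and leaving out a tag can only keep or widen a gap. In cells with under 5 reads of *ASPN*, 18 of the other 19 genes did not overlap, *BMP4* being the exception. In cells with at least 5 reads, 15 of 19 did not, and *IRX5*, *MKI67*, *SOST* and *ZNF823* overlapped, *MKI67* with a reversed log2 difference of -0.078 at levels of 0.313, 6.55, 1.05 and 2.18 rpm. The counts of genes past 2-fold were less stable. The NC-rich count of 4 became 0 at a mean of at least 20 rpm, 80 without the minimum level and the minimum share of cells together, and 45 at 1.5-fold. It became 7 in cells without a read of *KRT19* or *TBXT* and 7 with under 5 reads of 6 notochordal genes. The NC-poor count of 10 became 4 at 20 rpm, 125 without both minima, 6 without a read of either *KRT19* or *TBXT* and 37 at 1.5-fold. *ASPN*, *NQO1*, *CRTAC1* and *CYP1B1* were the 4 genes left at 20 rpm. Leaving out each tag in turn gave 11 to 94 NC-rich and 15 to 64 NC-poor genes, with the side that lost it then judged by 1 tag. The highest counts came without A954. Of the 4 NC-rich genes, *TF* and *BORCS5* were called with equal weight of cells and after thinning. *IRX5*, with log2 gaps of 1.03 and 1.04, and *MKI67*, with gaps of 0.26 in both, were then no longer among the genes compared. Without the 0.5% of cells with most reads of a gene, 3 NC-rich and 14 NC-poor genes were called, of which 1 and 6 were among those reported. The 101 genes 2-fold apart between A951 and A952 became 166 with equal weight of cells, 7 at 20 rpm and 1750 without both minima. They became 163 after thinning and 158 without a read of *KRT19* or *TBXT*, and were 95 to 103 with 1 tag of the other side left out. The 309 between A953 and A954 became 124 at 20 rpm and 1946 without both minima, and were 316 to 317 with 1 tag of the other side left out. In every setting more genes separated the NC-poor tags than the NC-rich tags. The count of cartilage matrix genes ran from 11 to 16 and that of superficial zone genes from 10 to 14, both highest without A954. That of other collagens ran from 6, at 20 rpm and without the 0.5% of cells with most reads, to 10 without A953. Median-of-ratios scaling shifted no tag by more than 0.0054 on the log2 scale. No paired analysis was possible because the sides hold tags of 1 library without replicate numbers.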
